A study of Mus musculus with 12 samples.

Results

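Uchl1, Uchl3, Uchl5 and Bap1 encode the ubiquitin C-terminal hydrolases, a family of cysteine proteases that cut ubiquitin from the ends of other chains. Uchl1 was chosen on its own difference between p38-MAPKi and control blastocysts at E3.5 + 10 h in these libraries, and Uchl3, Uchl5 and Bap1 were added as its family relatives. They are 4 of the 34245 genes measured. Uchl4, a gene copy of Uchl3, is described beside them because the reads of both genes are hard to separate.

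mRNA was measured by poly(A) RNA sequencing of 12 libraries, each made from a pool of 30 mouse blastocysts of F1 (C57Bl6 x CBA/W) females. The females were superovulated, embryos were taken at E1.5 with 2 cells and grown in KSOM with amino acids at 0.5X. From E3.5 the blastocysts were cultured for 4, 7 or 10 h in medium with 20 µM SB220025, a p38-MAPK inhibitor (p38-MAPKi), or in medium with 0.2 to 0.5% DMSO, the solvent (control). Each of the 6 groups (control and p38-MAPKi at each time) holds 2 libraries, called pool 1 and pool 2 here, and a time such as E3.5 + 7 h is written as 7 h below. The labels do not say whether the pools came from separate matings. A pool mixes trophectoderm, epiblast and primitive endoderm cells, so fewer cells of a type and less RNA per cell cannot be told apart in any of the values given.

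Ubiquitin is made as fusions and chains and is attached to target proteins through its C-terminal end, and deubiquitinases undo these links. Uchl1 and Uchl3 are small enzymes that act on short ubiquitin adducts, Uchl3 also cleaves the ubiquitin-like NEDD8, and Uchl1 is best known for its abundance in neurons and oocytes. Uchl5 works at the proteasome on the receptor Adrm1 and in the INO80 chromatin remodeller, and Bap1 removes ubiquitin from histone H2A with Asxl proteins, which opposes the ubiquitin ligase complex PRC1.

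All of these genes lie on the plus strand of GRCm38. Uchl1 (ENSMUSG00000029223.12) is at chr5:66676091-66687234, Uchl3 (ENSMUSG00000022111.9) at chr14:101653967-101696124, Uchl4 (ENSMUSG00000035337.3) at chr9:64235201-64236362, Uchl5 (ENSMUSG00000018189.12) at chr1:143777272-143807466 and Bap1 (ENSMUSG00000021901.10) at chr14:31251450-31259944. The family is defined by its catalytic cysteine. The coding sequence around that codon is shown because it separates the close relatives from the distant ones, with the cysteine codon in capitals and 24 bases on either side.
Uchl1: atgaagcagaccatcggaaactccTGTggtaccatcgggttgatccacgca
Uchl3: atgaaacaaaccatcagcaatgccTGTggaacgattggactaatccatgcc
Uchl4: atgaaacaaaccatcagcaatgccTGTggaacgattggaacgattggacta
Uchl5: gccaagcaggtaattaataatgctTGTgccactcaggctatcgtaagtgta
Bap1: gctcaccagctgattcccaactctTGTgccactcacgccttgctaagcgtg
The codon is exonic in each gene, in exon 4 of Uchl1 (codon 90 of 223, chr5:66679756-66679758), exon 4 of Uchl3 (codon 95 of 230, chr14:101666611-101666613) and exon 1, the single exon, of Uchl4 (codon 95 of 233, chr9:64235521-64235523). In Uchl5 it is in exon 4 (codon 88 of 329, chr1:143794292-143794294) and in Bap1 in exon 5 (codon 91 of 728, chr14:31253471-31253473). Uchl1 and Uchl3 share 37 of these 51 bases (72.5%), and Uchl5 and Bap1 share 34 (66.7%). Across those pairs the identity is lower, from 37.3% for Uchl3 and Bap1 to 49.0% for Uchl1 and Bap1.

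Uchl4 is identical to Uchl3 in 675 of 702 aligned coding bases (96.2%), and of the 50-base windows of the Uchl3 transcript, the length of a read, 34.2% occur unchanged in Uchl4. Whether a read that maps to both genes was counted is not stated, so the values of Uchl3 and Uchl4 may share reads. None of the other pairs shares a 50-base window (0 windows in each direction). The members also differ in the 250 bases before their RefSeq start, which hold 7 CG dinucleotides for Uchl1, 15 for Uchl3, 30 for Uchl5 and 43 for Bap1, against a median of 17 over 8177 promoters of genes that passed the filter. Of those promoters, 99.3% hold at least 1 CG and 15.5% hold as few as Uchl1 or fewer. Uchl4 has no CG in that window.

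Values are RPKM, reads scaled to transcript length and to library size, so levels of different genes are compared per length. Depth lay between 11242313 reads in p38-MAPKi pool 1 at 7 h and 24457311 reads in p38-MAPKi pool 2 at 10 h. The p38-MAPKi pools at 7 h are the least alike by correlation: that of log2 RPKM between them is 0.951 over 10720 genes, whereas it lies between 0.976 and 0.989 in the other groups, and pool 1 has the fewest reads. Results at 7 h are therefore also given without each of these pools where that ends a call. By the median SD of log2 RPKM, the p38-MAPKi pools at 4 h (0.196) differ about as much as those at 7 h (0.198). In the other groups it lies between 0.0799 and 0.155. The p-values given measure the spread between these pools (over genes of a level, not of each gene, for p38-MAPKi against control at 4 h and control from 4 h to 7 h), and counting intervals cover counting error only.

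Uchl1 stood at 25.6 and 26.4 RPKM in control pools 1 and 2 at 4 h and at 21.05 and 29.8 RPKM in the p38-MAPKi pools. At 7 h it was at 40.2 and 27.3 RPKM in control and at 37.9 and 47.7 RPKM in p38-MAPKi. At 10 h it was at 32.7 and 33.6 RPKM in control and at 7.68 and 13.0 RPKM in p38-MAPKi. The p38-MAPKi pools at 10 h are the lowest of the 12 libraries, whereas control and p38-MAPKi overlap at 4 h and at 7 h. These lowest values rest on 276 and 519 reads, with 95% Poisson counting intervals of 6.80 to 8.64 RPKM and 11.9 to 14.2 RPKM, and the other 10 libraries hold 695 to 1386 reads of Uchl1. The difference between both p38-MAPKi pools is thus wider than counting error.

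By group, Uchl1 had a mean of 42.8 ± 6.91 RPKM (SD, n = 2) in p38-MAPKi at 7 h, 33.7 ± 9.17 in control at 7 h, 33.1 ± 0.642 in control at 10 h, 26.0 ± 0.580 in control at 4 h, 25.4 ± 6.18 in p38-MAPKi at 4 h and 10.3 ± 3.76 in p38-MAPKi at 10 h. In this order, neighbours overlap except at the step from control at 10 h down to control at 4 h and at the last step. Its span over the 12 libraries was 2.63 on the log2 scale, with its low end in the pools it was chosen on, and its mean level is at percentile 78.4. The antisense gene Uchl1os, which overlaps the start of Uchl1, had no read in any library, which allows up to 0.150 RPKM in the shallowest one by the same counting interval.

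**Figure D1:**
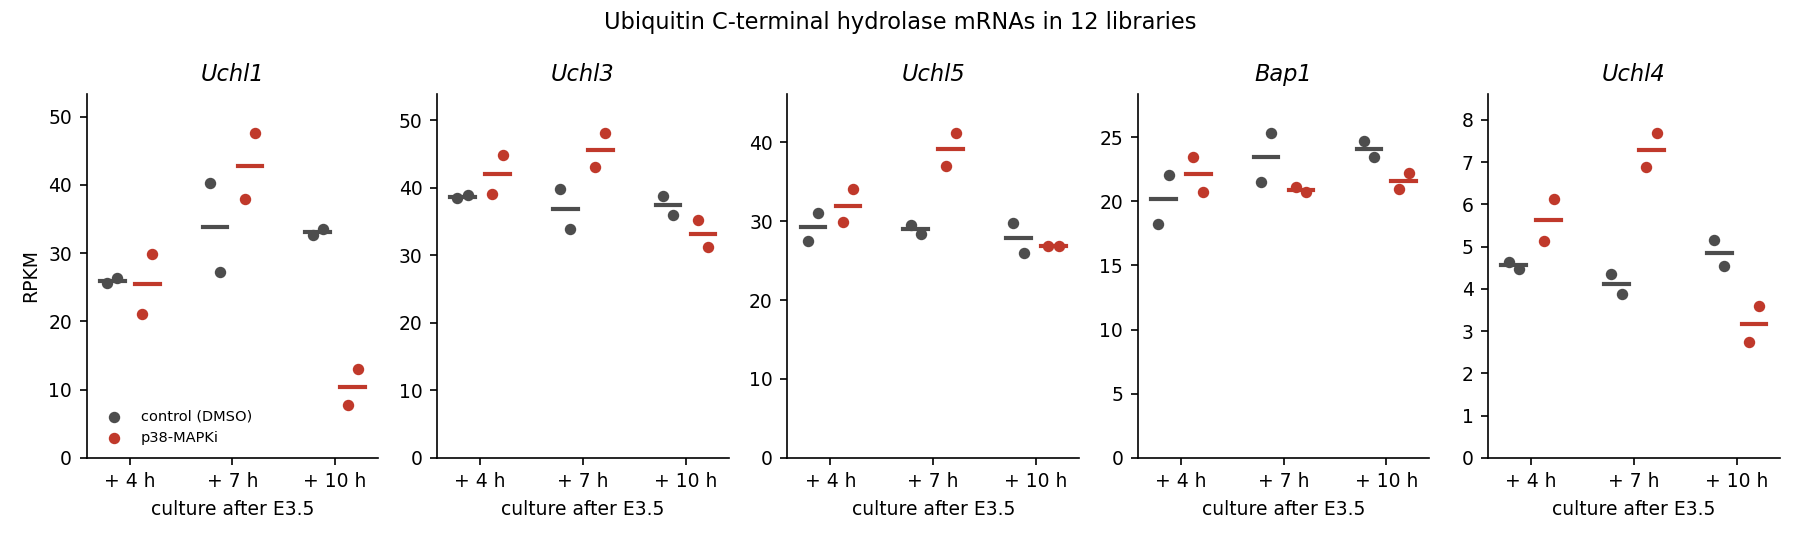
RPKM of Uchl1, Uchl3, Uchl5, Bap1 and Uchl4 in each library (points) and the mean of each group (bars) by hours of culture after E3.5, with an axis from 0 for each gene. The p38-MAPKi pools at 10 h hold the lowest Uchl1 values (7.68 and 13.0 RPKM), whereas Bap1 stays between 18.3 and 25.4 RPKM.

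The first question is whether the mRNAs differ between p38-MAPKi and control within each time. At 10 h, the contrast on which Uchl1 was chosen, its log2 fold change was -1.73, a level 3.31-fold lower in p38-MAPKi, and 35 of 10959 genes had a lower value, which is given as a description with no test. At 4 h the log2 fold change of Uchl1 was -0.05 (SE 0.205, limma adjusted p = 0.958). At 7 h it was 0.36 (SE 0.225, 95% interval -0.149 to 0.868, limma adjusted p = 0.315), and the pools overlap. No difference of Uchl1 beyond the spread between pools was therefore detected at these earlier times. Its direction at 4 h turns with single pools, from -0.30 without p38-MAPKi pool 2 to 0.20 without pool 1. At 7 h the log2 fold change of Uchl1 ran from 0.08 to 0.64 over the libraries left out in turn and from 0.16 to 0.56 over other settings.

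With limma across all genes, 0 of the 4 mRNAs were called at an adjusted p under 0.05 at 4 h, where 0.909% of 10781 genes were called, and 0 of the 4 at 7 h, where 2.13% of 10940 genes were called. At an unadjusted p under 0.05 the counts are 0 and 1, the latter being Uchl5, beside 9.42% and 28.4% of all genes. At 10 h, where 0.803% of 10959 genes were called, 0 of the 3 mRNAs other than Uchl1 were called and 0 passed an unadjusted p under 0.05 with limma, which 19.8% of all genes did.

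The number of mRNAs whose pools do not overlap is read against all genes. At 4 h both p38-MAPKi pools were above both control pools for 1 of the 4 (Uchl3), as for 26.8% of all genes tested, and below for 0, as for 13.7%. At 7 h they were above for 2 (Uchl3 and Uchl5), as for 23.0% of genes, and below for 1 (Bap1), as for 38.7%. At 10 h, with Uchl1 left out since it was chosen there, they were above for 0 of 3, as for 22.6% of genes, and below for 2 (Uchl3 and Bap1), as for 29.6%.

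Uchl3, the closest relative of Uchl1 among the members, was at 38.4 and 39.0 RPKM in control and 39.1 and 44.9 RPKM in p38-MAPKi at 4 h. It was at 39.8 and 33.8 RPKM in control and 43.0 and 48.2 RPKM in p38-MAPKi at 7 h, and at 38.7 and 36.0 RPKM in control and 35.2 and 31.2 RPKM in p38-MAPKi at 10 h. The p38-MAPKi pools are above control at both earlier times and below it at the last, in each case without overlap and by a margin that at 4 h is smaller than the spread between pools. The log2 fold changes were 0.11 (SE 0.201, limma adjusted p = 0.894), 0.31 (SE 0.177, limma adjusted p = 0.276) and -0.17 (SE 0.085, limma adjusted p = 0.316), and none passed. After quantile normalization the value at 4 h was -0.02.

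Group means of Uchl3 run from 45.6 ± 3.65 RPKM (SD, n = 2) in p38-MAPKi at 7 h through 42.0 ± 4.11 in p38-MAPKi at 4 h, 38.7 ± 0.394 in control at 4 h, 37.4 ± 1.92 in control at 10 h and 36.8 ± 4.20 in control at 7 h to 33.2 ± 2.89 in p38-MAPKi at 10 h. Each of these groups overlaps its neighbour, or is apart from it by less than 1 SD. Between 449 and 901 reads lie behind each Uchl3 value.

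Uchl4 showed the same order of p38-MAPKi groups at a much lower level. It was at 4.63 and 4.48 RPKM in control and 5.13 and 6.13 RPKM in p38-MAPKi at 4 h, at 4.36 and 3.87 RPKM in control and 6.89 and 7.70 RPKM in p38-MAPKi at 7 h, and at 5.15 and 4.55 RPKM in control and 2.74 and 3.59 RPKM in p38-MAPKi at 10 h. Control and p38-MAPKi do not overlap at any of these times, with p38-MAPKi above control at the first and second time and below at the last. The log2 fold changes of 0.30, 0.83 and -0.63 did not pass (limma adjusted p = 0.751, 0.0657 and 0.120). Without p38-MAPKi pool 1 or pool 2 at 7 h, the adjusted p by limma at that time was 0.0454 or 0.0471, within a range of 0.0454 to 0.464 over the libraries left out in turn, with log2 values of 0.74 to 0.91. Uchl4 at 7 h was also called with a replicate block (0.0279) and with all 12 libraries in 1 fit (0.0141), while the other settings reached 0.170, so that this difference lies near the threshold.

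Group means of Uchl4 were 7.29 ± 0.573 RPKM (SD, n = 2) in p38-MAPKi at 7 h, 5.63 ± 0.709 in p38-MAPKi at 4 h, 4.85 ± 0.430 in control at 10 h, 4.55 ± 0.109 in control at 4 h, 4.12 ± 0.348 in control at 7 h and 3.16 ± 0.603 in p38-MAPKi at 10 h. Overlap among neighbours is limited to the middle of this order, from p38-MAPKi at 4 h down to control at 4 h. These levels rest on 70 to 156 reads. Uchl4 lies within Map2k1, a gene of the opposite strand with 24.0 to 32.5 RPKM. The ratio of Uchl4 to Uchl3 in RPKM was 0.160 in both p38-MAPKi pools at 7 h, 0.0776 and 0.115 in those at 10 h, and 0.110 to 0.137 in the other libraries. The ratio was thus not the same in all libraries, and what part shared reads have in it was not tested.

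Uchl5, the proteasomal and INO80 enzyme, was at 27.5 and 31.0 RPKM in control and 29.9 and 34.0 RPKM in p38-MAPKi at 4 h. The values were 29.5 and 28.4 RPKM in control and 37.0 and 41.2 RPKM in p38-MAPKi at 7 h, and 29.8 and 25.9 RPKM in control and 26.8 and 26.9 RPKM in p38-MAPKi at 10 h. Both p38-MAPKi pools at 7 h are above the other 10 libraries, and the groups overlap at the other times. The log2 fold change at 7 h was 0.43 (SE 0.170, 95% interval 0.047 to 0.816, limma adjusted p = 0.142), which did not pass, and with all 12 libraries in 1 fit the adjusted p by limma was 0.0343. Other settings gave up to 0.258 and libraries left out in turn 0.178 to 0.572. At 4 h and 10 h it was 0.13 and -0.05 (limma adjusted p = 0.881 and 0.785). The first turns to -0.01 when the dependence on gene length is removed, the second to 0.01 after quantile normalization.

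Group means of Uchl5 were 39.1 ± 3.02 RPKM (SD, n = 2) in p38-MAPKi at 7 h, 32.0 ± 2.90 in p38-MAPKi at 4 h, 29.3 ± 2.48 in control at 4 h, 28.9 ± 0.777 in control at 7 h, 27.9 ± 2.71 in control at 10 h and 26.9 ± 0.0598 in p38-MAPKi at 10 h. From p38-MAPKi at 4 h downward every group overlaps its neighbour. Gm29170, a transcript inside Uchl5 on its strand, reached at most 1.94 RPKM.

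Bap1 was the steadiest. Its values were 18.3 and 22.1 RPKM in control and 23.4 and 20.8 RPKM in p38-MAPKi at 4 h, 21.5 and 25.4 RPKM in control and 21.1 and 20.7 RPKM in p38-MAPKi at 7 h, and 24.7 and 23.4 RPKM in control and 20.97 and 22.2 RPKM in p38-MAPKi at 10 h. The p38-MAPKi pools are below control at 7 h and 10 h and overlap it at 4 h. The log2 fold changes were 0.14, -0.16 and -0.16 (limma adjusted p = 0.875, 0.573 and 0.300), and none passed. The value at 7 h turns to 0.04 when each library is centred on its median or when the dependence on gene length is removed. Its span over the 12 libraries, 0.475 on the log2 scale, is wider than that of 9.5% of 10720 genes.

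The Bap1 group means were 24.1 ± 0.904 RPKM (SD, n = 2) in control at 10 h, 23.4 ± 2.74 in control at 7 h, 22.1 ± 1.90 in p38-MAPKi at 4 h, 21.6 ± 0.856 in p38-MAPKi at 10 h, 20.9 ± 0.308 in p38-MAPKi at 7 h and 20.2 ± 2.71 in control at 4 h. All neighbours in this order overlap.

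**Figure D2:**
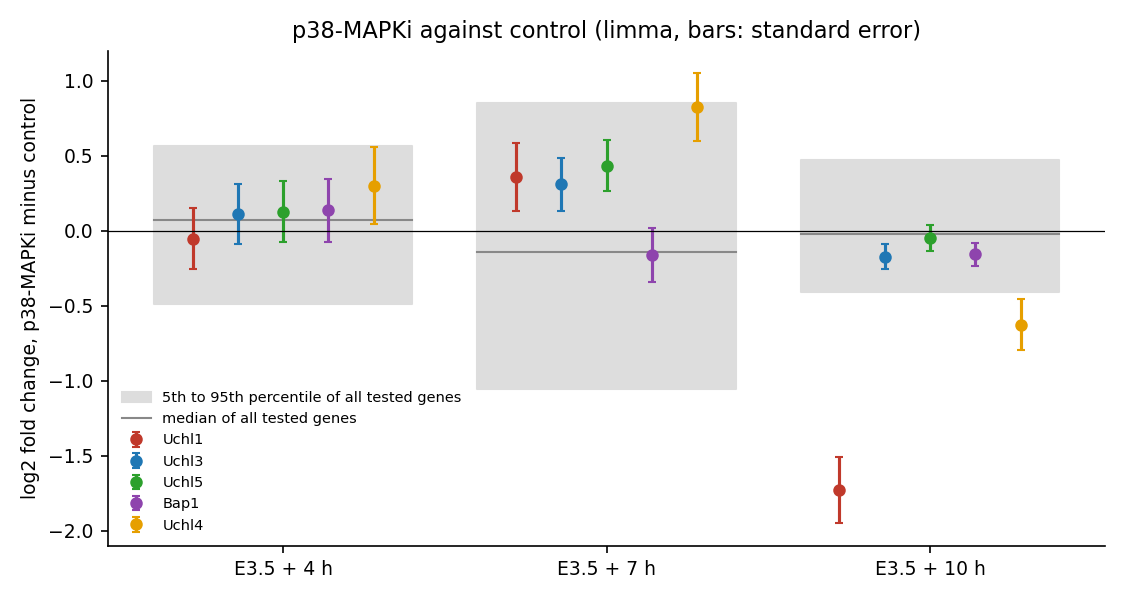
Log2 fold change of p38-MAPKi against control for the 4 members and Uchl4 at each time, as points with the limma standard error, over a grey band from the 5th to the 95th percentile of all tested genes and a line at their median. Uchl1 at 10 h (-1.73, the value it was chosen on) and Uchl4 at 10 h (-0.63) lie below the band, and the other points lie within it.

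The next comparisons follow each condition through culture. From 4 h to 7 h in control, 0 of the 4 mRNAs were called by limma, and 0 passed an unadjusted p under 0.05, where 0.492% of all genes were called and 4.79% passed the unadjusted threshold. The log2 change of Uchl1 was 0.35 (limma adjusted p = 0.999), with both later pools above both earlier ones, and 76.6% of all genes had positive values. Without control pool 1 at 7 h it was 0.0706, and without pool 2 it was 0.63, so its size depends on control pool 1. The same step under p38-MAPKi called 0 of the 4, and 0.00920% of all genes. Uchl1 passed an unadjusted p under 0.05 there, as did 9.49% of all genes, with a log2 change of 0.76 (SE 0.225, limma adjusted p = 0.328) and 2 of 2 later pools above the earlier ones. Positive values were held by 39.5% of all genes in that step. The share of all genes whose pools do not overlap is not given for the steps.

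From 7 h to 10 h in control, 0 of the 3 mRNAs other than Uchl1 were called by limma, and 0 passed an unadjusted p under 0.05, where 0.0552% of all genes were called and 3.79% passed the unadjusted threshold. Uchl1 had a log2 change of 0.00 between the means, given without a test. It was 0.28 without control pool 1 and -0.28 without pool 2 at 7 h, which stood at 40.2 and 27.3 RPKM, so no direction can be given. From 4 h to 10 h in control, 0 of these 3 were called and 0 passed an unadjusted p under 0.05 with limma, where 0.471% of all genes were called and 15.2% passed the unadjusted threshold. Uchl1 had a log2 difference of 0.35 over that span, without a test, and Bap1 one of 0.26 (limma adjusted p = 0.361), each with both later pools above both earlier ones. Over the same span 75.7% of all genes had positive values.

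Under p38-MAPKi the step from 7 h to 10 h called 22.0% of all genes (2424 of 11024, 1319 higher and 1105 lower), and 1 of the 3 mRNAs other than Uchl1. The number of genes called in this step depends on the setting. It was 0 in limma without the trend (4143 at an unadjusted p under 0.05), 996 with the dependence on length removed (296 higher and 700 lower), 2478 with libraries centred (644 higher and 1834 lower) and 3638 with 12 libraries in 1 fit. Without single pools it was 4622 or 6434 (p38-MAPKi pool 1 or 2 at 7 h) and 75 or 243 (pool 1 or 2 at 10 h).

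From 7 h to 10 h under p38-MAPKi, Uchl5 fell by 0.54 on the log2 scale (SE 0.118, limma adjusted p = 0.0295), from 39.1 to 26.9 RPKM with 2 of 2 later pools below the earlier ones, and so did Uchl4, by 1.22 (SE 0.208, limma adjusted p = 0.0186). Negative values were held by 38.9% of all genes in this step. Uchl3 lay at the threshold with -0.46 (SE 0.127, limma adjusted p = 0.0519) and 2 of 2 later pools below. It was called in 6 of 10 other settings (adjusted p from 0.0157 to 0.117 over all 10) and without p38-MAPKi pool 1 (0.00762) or pool 2 (0.0219) at 7 h, and libraries left out in turn reached 0.403. Bap1 had 0.04 (limma adjusted p = 0.799). Uchl1 was 4.25-fold lower at the later time (log2 -2.09), given without a test. The call of Uchl5 ends without p38-MAPKi pool 1 (0.284) or pool 2 (0.235) at 10 h, and that of Uchl4 likewise (0.165 and 0.0655), these being limma adjusted p values. Both calls also end in limma without the trend (0.0796 for Uchl5 and 0.0627 for Uchl4). At 7 h the p38-MAPKi pools, which enter this step, are the ones with the lowest correlation. With a pool of a time left out, the spread comes from the pools of the other time alone, so such fits do not decide whether a call holds. Without pool 1 or pool 2 at 7 h, the log2 change was -0.62 or -0.46 for Uchl5 and -1.30 or -1.14 for Uchl4. Without pool 1 or pool 2 at 10 h, it was -0.54 in both fits for Uchl5 and -1.02 or -1.41 for Uchl4.

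Across the whole span from 4 h to 10 h under p38-MAPKi, 0 of the 3 mRNAs other than Uchl1 were called and 1, Uchl3, passed an unadjusted p under 0.05 with limma, where 0% of 10949 genes were called and 22.2% passed the unadjusted threshold. That 0 is not stable, since 1818 genes were called with a replicate block, 220 with 12 libraries in 1 fit, and 4749 or 607 without p38-MAPKi pool 1 or pool 2 at 4 h. The log2 changes were -0.34 for Uchl3 (limma adjusted p = 0.220), -0.25 for Uchl5 (limma adjusted p = 0.290) and -0.03 for Bap1 (limma adjusted p = 0.893). Uchl1 was 2.51-fold lower, with a log2 difference of -1.33 that is given without a test.

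Whether the effect of p38-MAPKi differs between times was tested directly, as the interaction of treatment and time. Between 4 h and 7 h, 0 of the 4 mRNAs were called and 0 passed an unadjusted p under 0.05 with limma (0.00884% of all genes called, 6.83% at the unadjusted threshold), and the difference for Uchl1 was 0.41 (SE 0.319, limma adjusted p = 0.684). That difference ran from 0.13 to 0.69 over the libraries left out in turn. Between 7 h and 10 h, 0 of the 3 other than Uchl1 were called and 2 passed an unadjusted p under 0.05 with limma (0.00877% of all genes called, 26.3% at the unadjusted threshold). These were Uchl3 and Uchl5, each with a log2 difference of -0.48 (limma adjusted p = 0.144 and 0.117). Between 4 h and 10 h, 0 of the 3 were called and 0 passed an unadjusted p under 0.05 with limma, where 0% of 11288 genes were called and 9.86% passed the unadjusted threshold. For Uchl1 the differences that involve 10 h were -2.09 and -1.68, given without a test. Without p38-MAPKi pool 1 at 10 h they were -1.71 and -1.30, without pool 2 there -2.47 and -2.06, and with a pseudocount of 5 -1.65 and -1.29.

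An effect common to the 3 times was fitted over all 12 libraries. It called 0 of the 3 mRNAs other than Uchl1 with limma, and 0 passed an unadjusted p under 0.05, where 2.67% of 11590 genes were called and 25.0% passed the unadjusted threshold. The common log2 differences were 0.08 for Uchl3, 0.17 for Uchl5 and -0.06 for Bap1 (limma adjusted p = 0.589, 0.260 and 0.692).

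As a share of the summed RPKM of the 4 mRNAs, Uchl1 made up 23.3% and 22.3% in control and 18.5% and 23.0% in p38-MAPKi at 4 h. The shares were 30.7% and 23.7% in control and 27.3% and 30.2% in p38-MAPKi at 7 h, and 26.0% and 28.2% in control and 8.47% and 13.9% in p38-MAPKi at 10 h. The sum itself was lowest in the last group, at 90.7 and 93.2 RPKM, and between 110 and 158 RPKM in the other libraries. Per length, Uchl3 was above Uchl1 in 11 of 12 libraries, the exception being control pool 1 at 7 h with a ratio of Uchl1 to Uchl3 of 1.01.

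**Figure D3:**
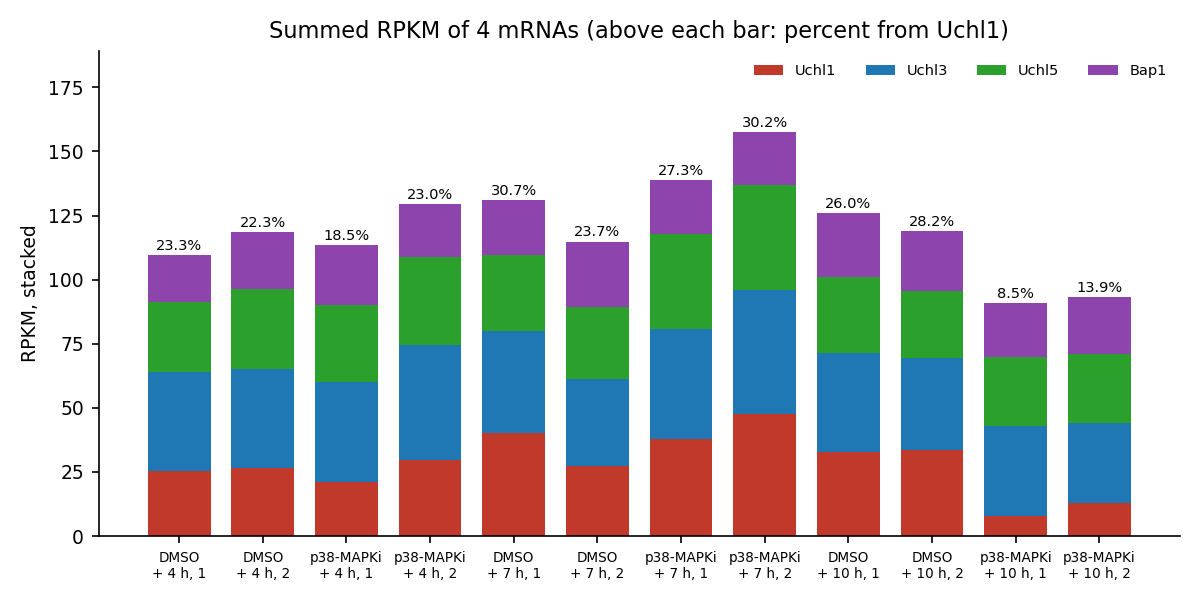
Summed RPKM of Uchl1, Uchl3, Uchl5 and Bap1 in each library as stacked bars from 0, with the percent from Uchl1 written above each bar. The sum is lowest in both p38-MAPKi pools at 10 h (90.7 and 93.2 RPKM), where Uchl1 makes up 8.47% and 13.9%.

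The genes whose log2 RPKM followed that of Uchl1 most closely over the 12 libraries, among 10167 genes, were Hspa4 (Pearson r = 0.960, Spearman rho = 0.874), Zwint (0.922, 0.895), Pdia6 (0.903, 0.839), Hspa2 (0.893, 0.895), Sqstm1 (0.870, 0.497) and Creld2 (0.869, 0.664). Hspa4 and Hspa2 are Hsp70-type chaperones, Pdia6 and Creld2 act in the folding of proteins in the endoplasmic reticulum, Sqstm1 encodes the ubiquitin-binding autophagy receptor p62, and Zwint is a kinetochore protein. The lowest r belonged to Acss1 (-0.911, rho -0.776), Zfp868 (-0.876, rho -0.685), Ankrd16 (-0.875, rho -0.762) and Bbs4 (-0.853, rho -0.573). No p is given for these, since libraries share their groups and their scaling to total reads. Of the 6 highest by Spearman rho, 2 are among the 6 highest by Pearson r.

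Much of this likeness comes from the p38-MAPKi pools at 10 h, the libraries farthest from the median of Uchl1. Over the other 10 libraries r was 0.826 for Hspa4, 0.806 for Zwint, 0.729 for Hspa2, 0.645 for Pdia6, 0.526 for Creld2 and 0.081 for Sqstm1, so that the likeness of Sqstm1 rests on the p38-MAPKi pools at 10 h. Of the genes with the lowest r, Ankrd16 had -0.788 over the other 10 libraries, Acss1 -0.667, Zfp868 -0.589 and Bbs4 -0.359. The span of Hspa4 was narrow beside that of Uchl1, from 84.0 to 104 RPKM. Sqstm1 had a mean of 109 RPKM in p38-MAPKi at 10 h and between 158 and 180 RPKM in the other groups.

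Within the family, r with Uchl1 was 0.653 for Uchl3, 0.580 for Uchl5, 0.042 for Bap1 and 0.804 for Uchl4, and without the p38-MAPKi pools at 10 h it was 0.537, 0.557, -0.163 and 0.526. Uchl3 and Uchl5 were more alike (r = 0.872, rho = 0.860, and r = 0.892 without the p38-MAPKi pools at 10 h), and Bap1 had r = -0.384 with Uchl3 and -0.230 with Uchl5. The genes most like Uchl3 were the ribosomal protein gene Rpl10a (r = 0.945) and the replication factor gene Rfc4 (0.937), and those most like Uchl5 were Anapc16 (0.960), a subunit of the anaphase-promoting complex, and Endog (0.959), a mitochondrial nuclease. For Bap1 they were Snx19 (0.899) and Atp6v0a1 (0.892).

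**Figure D4:**
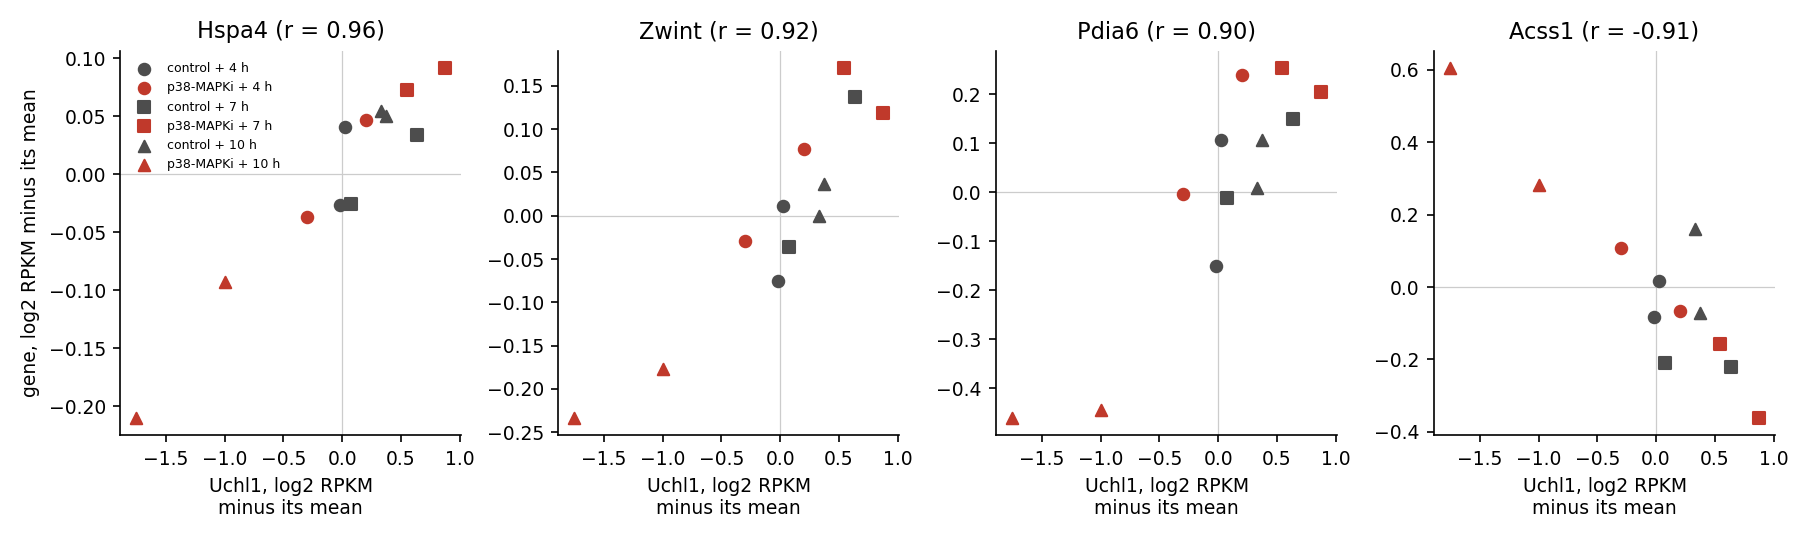
Log2 RPKM of Hspa4, Zwint, Pdia6 and Acss1 against that of Uchl1, each minus its mean over the 12 libraries, 1 point per library, with colour for treatment and shape for time. The p38-MAPKi pools at 10 h lie far to the left in each panel, and r over all libraries is 0.960 for Hspa4, 0.922 for Zwint, 0.903 for Pdia6 and -0.911 for Acss1.

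Other genes of the ubiquitin pathway were grouped by their part in it. At 7 h the median log2 fold change over all genes was -0.14, and it was 0.05 when each library was centred on its median and 0.01 when the dependence on gene length was removed, a shift of more than 0.1, so that lists are read against it. The medians over all genes at 4 h and 10 h were 0.07 and -0.02. An unadjusted p under 0.05 was reached by 9.42%, 28.4% and 19.8% of all genes at the successive times, and 40.0%, 59.9% and 54.3% of all values were negative, and the counts over lists are to be read beside these shares. The 4 members had medians of 0.12 and 0.335 at 4 h and 7 h, the first turning to -0.004 after quantile normalization, and at 10 h the 3 without Uchl1 had one of -0.16. For p38-MAPKi from 7 h to 10 h the median over all genes was 0.16, and -0.06 with libraries centred or -0.01 with the dependence on length removed, beside -0.46 for the members without Uchl1.

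The substrates come first. Among 6 genes for ubiquitin and NEDD8 precursors and the NEDD8 protease Senp8, 0 were called by limma at any of the times, with 1, 3 and 1 at an unadjusted p under 0.05 and medians of 0.32, 0.55 and -0.01, the last being 0.06 after quantile normalization and 0.04 with the dependence on length removed. Nedd8, which Uchl3 cleaves, was at 280 and 208 RPKM in control and 394 and 400 RPKM in p38-MAPKi at 7 h (log2 0.72, limma adjusted p = 0.0681), with no overlap. The polyubiquitin gene Ubb, the most abundant at 10 h, was at 239 and 333 RPKM in control and 286 and 285 RPKM in p38-MAPKi at that time. Among p38-MAPKi pools from 7 h to 10 h, 4 of the 6 were called lower by limma, beside 10.0% of all genes, and 5 had negative values, beside 38.9% of all genes (median -0.58).

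Of 16 genes that attach ubiquitin or NEDD8, 0 were called by limma at any time, with 1, 3 and 4 at an unadjusted p under 0.05. Their medians were 0.09 (-0.01 after quantile normalization), 0.01 and -0.11. Cdc34, a ubiquitin-conjugating enzyme, was at 279 and 238 RPKM in control and 451 and 413 RPKM in p38-MAPKi at 7 h (log2 0.745, limma adjusted p = 0.0576). The groups of Cdc34 are well apart there but did not pass.

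The partners of Uchl5, at the proteasome and in INO80, are 15 genes with medians of 0.165, 0.10 and -0.09. Of these, 0, 1 and 0 were called by limma at the successive times, with 1, 3 and 2 at an unadjusted p under 0.05. Tfpt, an INO80 subunit, was at 21.7 and 23.9 RPKM in control and at 45.3 and 41.3 RPKM in p38-MAPKi at 7 h. Both p38-MAPKi pools are the higher ones. Tfpt rose by 0.93 on the log2 scale (limma adjusted p = 0.0461), a call that ends without control pool 1 (0.0733) or pool 2 (0.268) and holds in 8 of 14 alternative settings. Psmd1, the proteasome subunit that holds Adrm1, had -0.27 at 10 h (limma adjusted p = 0.108).

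The partners of Bap1 are 11 genes, of which 9 passed the filter. Their medians were -0.20, -0.665 and -0.12, with 8, 9 and 5 of 9 values negative, and at 7 h the median was -0.47 with libraries centred and -0.21 with the dependence on length removed. By limma 0 were called at any of these times, with 1, 6 and 4 at an unadjusted p under 0.05. Hcfc1, which binds Bap1, was at 33.3 and 49.7 RPKM in control and 17.7 and 24.7 RPKM in p38-MAPKi at 7 h (log2 -0.96, limma adjusted p = 0.0602), both p38-MAPKi pools being the lower ones. The 10 PRC1 genes, whose complex writes the mark that Bap1 removes, had medians of 0.02, -0.28 and -0.11. The first of these was negative under each of the other scalings (-0.005 with libraries centred, -0.04 after quantile normalization and -0.05 with the dependence on length removed), and 0 were called by limma at any time, with 1 at an unadjusted p under 0.05 at each. Rnf2, its ligase subunit, was at 19.7 and 20.5 RPKM in control and 14.1 and 15.9 RPKM in p38-MAPKi at 7 h (log2 -0.42, limma adjusted p = 0.163).

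**Figure D5:**
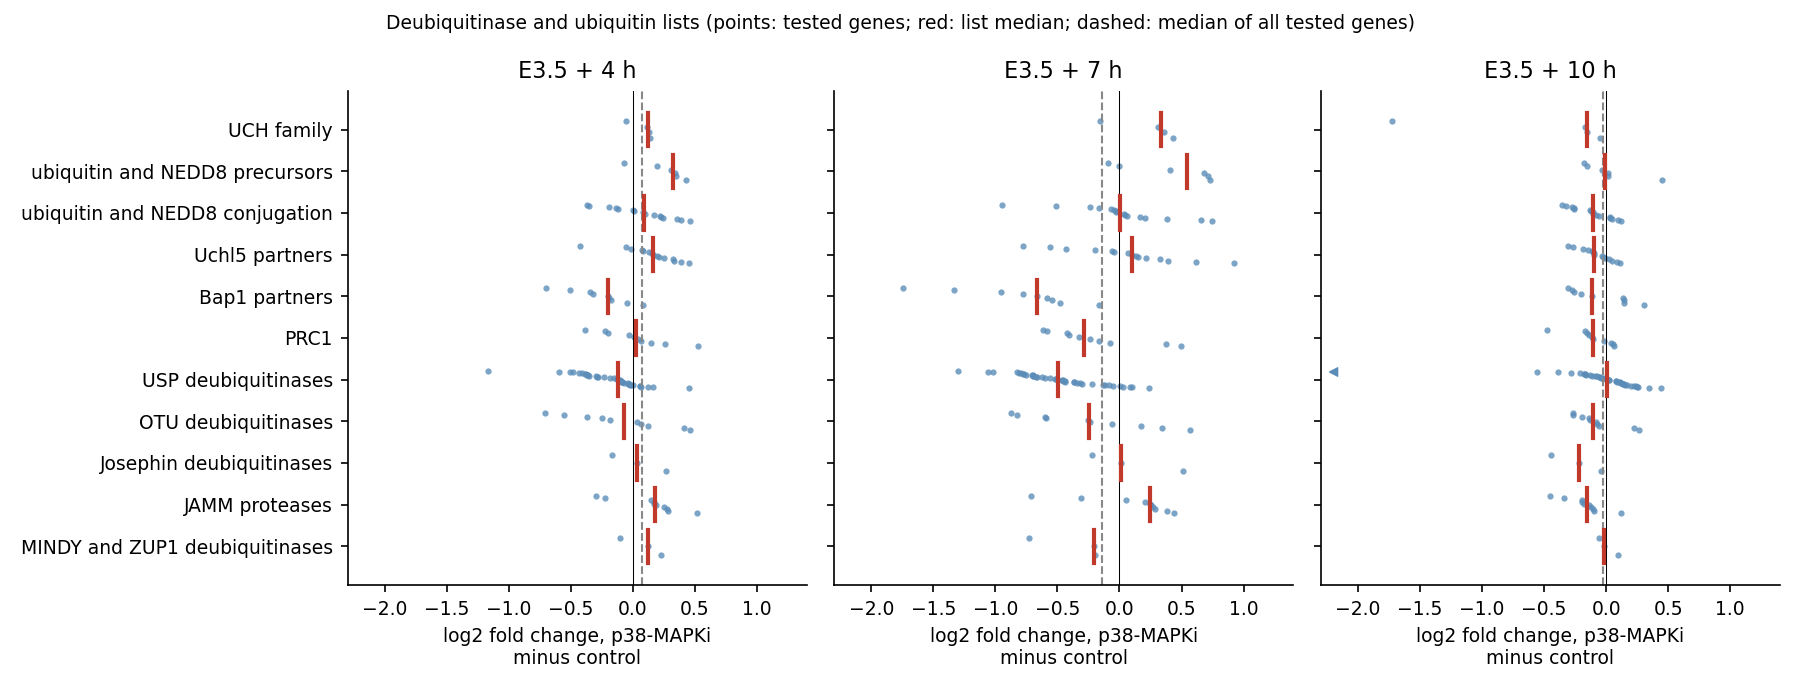
Log2 fold change of p38-MAPKi against control for each tested gene (points) of the ubiquitin pathway lists at each time, with the median of the list in red (without Uchl1 at 10 h) and that of all tested genes as a dashed line. Usp17lb and Usp17lc at 10 h lie beyond the axis and are drawn as arrowheads, and at 7 h the medians of the USP list (-0.50) and of the Bap1 partners (-0.665) are the farthest below that of all genes (-0.14), by less when the dependence on gene length is removed.

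The other deubiquitinase families serve as comparison. Of 55 USP genes, 41, 41 and 43 passed the filter at the successive times, with medians of -0.12, -0.50 and 0.01, and 1, Usp9x, was called lower at 4 h and at 7 h. With limma 3 and 16 of them had an unadjusted p under 0.05 at 4 h and 7 h. No such count is given at 10 h, since 2 genes passed the filter there through control alone. At 7 h 36 of the 41 values were negative, and the median was -0.30 with libraries centred and -0.09 with the dependence on gene length removed. Usp9x, an X-linked deubiquitinase with a long transcript, was at 9.34 and 10.6 RPKM in control and 7.80 and 2.51 RPKM in p38-MAPKi at 4 h, and at 8.96 and 13.3 RPKM in control and 4.63 and 4.23 RPKM in p38-MAPKi at 7 h. The p38-MAPKi pools are the lower ones at both times, and p38-MAPKi pool 2 at 4 h is lower than the rest. Usp9x fell by 1.17 and by 1.30 on the log2 scale (limma adjusted p = 0.000503 and 0.0461). At 4 h the call ends without control pool 1 (0.124), control pool 2 (0.208) or p38-MAPKi pool 2 (0.998), and at 7 h without control pool 2 (0.359). Without p38-MAPKi pool 2 the log2 value at 4 h was -0.35, whereas without a control pool it was -1.26 or -1.08, where the call alone was lost. The call at 4 h held in 4 of 13 alternatives and ended also with centring (0.432), quantile normalization (0.426), the dependence on length removed (0.409), no filter (0.233), no trend (0.501) and 12 libraries in 1 fit (0.291), with log2 values of -0.96 to -1.20 in these settings, and that at 7 h held in 8 of 13. The call at 7 h ended also with the dependence on length removed, where the log2 value shrank to -0.72. It ended as well with centring (log2 -1.11), quantile normalization (log2 -1.12) and no trend (log2 -1.30). Among p38-MAPKi pools from 7 h to 10 h, 11 of 41 USP genes were called higher by limma, beside 1319 of all 11024 genes, and 39 had positive values, beside 61.1% of all genes, with a median of 0.54 that is 0.03 with the dependence on length removed.

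Usp17lb, 1 of a cluster of near-identical copies, was at 5.01 and 2.72 RPKM in control and 0.087 and 0.024 RPKM in p38-MAPKi at 10 h. It was at 4.08 RPKM in p38-MAPKi pool 2 at 7 h and at most 0.051 RPKM in the 7 libraries at 4 h and in the rest of 7 h, so its level differs between pools of the same group. At 10 h it and Usp17lc passed the filter through the control pools alone, so no fold, test or call is given for them, and the USP median of 0.01 at that time includes both.

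Of 15 OTU genes 10 passed the filter, with medians of -0.075, -0.245 and -0.11, and 0, 1 and 0 called (2, 5 and 5 at an unadjusted p under 0.05 with limma). Otud1 was at 50.7 and 45.0 RPKM in control and 27.1 and 25.0 RPKM in p38-MAPKi at 7 h, and the p38-MAPKi pools were also the lower ones at both other times. It fell by 0.875 on the log2 scale (limma adjusted p = 0.0461), a call that ends without control pool 1 (0.0967) or pool 2 (0.282) and held in 8 of 14 alternatives. At 4 h and 10 h its log2 differences of -0.71 and -0.27 did not pass (limma adjusted p = 0.0508 and 0.0978).

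The list of JAMM metalloproteases and related complex subunits, with 10 of 11 genes tested, had medians of 0.18, 0.25 and -0.16. At 10 h 9 of 10 values were negative. By limma 0, 0 and 1 were called, with 1, 1 and 3 at an unadjusted p under 0.05. Psmd7, a subunit of the proteasome lid, was at 171 and 174 RPKM in control and 125 and 128 RPKM in p38-MAPKi at 10 h, the p38-MAPKi pools being well below. It fell by 0.45 on the log2 scale (limma adjusted p = 0.0398). That call ends without control pool 1 (0.0630), control pool 2 (0.0801) or p38-MAPKi pool 1 (0.0677), and it held in 8 of 14 alternatives.

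The 3 Josephin genes had medians of 0.03 (-0.02 after quantile normalization, -0.08 with the dependence on length removed), 0.01 and -0.215, with 0 called by limma and 0, 1 and 1 at an unadjusted p under 0.05. Josd2 had the smallest p, at 15.3 and 14.7 RPKM in control and 11.7 and 10.4 RPKM in p38-MAPKi at 10 h (log2 -0.44, limma adjusted p = 0.0855). Of 5 MINDY and ZUP1 genes 3 passed the filter, with medians of 0.125, -0.205 and -0.02 (0.02 with the dependence on length removed), 0 called by limma and 0 at an unadjusted p under 0.05.

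The label of the samples was checked against markers. Of 9 trophectoderm markers 8 were at 1 RPKM or more in all 12 libraries, with Elf5 the exception and a summed level of 1842 to 2686 RPKM led by Krt18. Of 7 epiblast markers 6 were, with a sum of 556 to 712 RPKM led by Pou5f1, and of 7 primitive endoderm markers 5, with a sum of 116 to 189 RPKM led by Gata6, while Foxa2 and Sox7 were at most at 0.034 and 0.436 RPKM. Primitive endoderm sums were lowest in the p38-MAPKi pools at 7 h (116 and 123 RPKM), and at 10 h they were 185 and 180 RPKM in p38-MAPKi beside 182 and 179 RPKM in control. Gata6 and Dab2 carry these sums, and the less abundant Gata4 was at 3.86 and 2.34 RPKM in control and 1.84 and 1.85 RPKM in p38-MAPKi at 10 h (log2 -0.70, limma adjusted p = 0.197), with both p38-MAPKi pools the lower ones. Sox17 had a mean of 3.58 RPKM in control and 2.80 RPKM in p38-MAPKi at that time (log2 -0.32, limma adjusted p = 0.480), and neither passed.

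Among these markers (lists of 9, 7 and 7 genes), 2 were called between p38-MAPKi and control, Id2 at 4 h and Dab2 at 7 h. Of all genes, 0.909%, 2.13% and 0.803% were called at 4 h, 7 h and 10 h, so the marker calls are given as a description. Id2 of the trophectoderm list was at 72.0 and 72.4 RPKM in control and 39.2 and 40.7 RPKM in p38-MAPKi at 4 h, and fell by 0.86 on the log2 scale (limma adjusted p = 0.00485), a call that ends without control pool 1 (0.467) or pool 2 (0.246). It held in 6 of 14 alternatives and ended also with centring (0.295), quantile normalization (0.263), the dependence on length removed (0.135), no filter (0.205), no trend (0.244) and 12 libraries in 1 fit (0.202), while its log2 value lay between -0.78 and -1.02 in all alternatives. The endocytic adaptor Dab2 of the primitive endoderm list was at 57.5 and 47.3 RPKM in control and 24.0 and 28.3 RPKM in p38-MAPKi at 7 h, and fell by 1.003 (limma adjusted p = 0.0461), which ends without control pool 1 (0.0819) or pool 2 (0.237) and held in 8 of 14 alternatives. Both p38-MAPKi pools are the lower ones in each case. Id2 was lower in both p38-MAPKi pools at the later times also, with log2 differences of -1.06 at 7 h and -0.60 at 10 h that did not pass (limma adjusted p = 0.0602 and 0.0727). The log2 difference of Gata3 at 10 h was -0.30 (limma adjusted p = 0.0871), with both p38-MAPKi pools the lower ones.

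Markers also moved among p38-MAPKi pools from 7 h to 10 h, the step in which Uchl5 and Uchl4 were called lower. Of the trophectoderm, epiblast and primitive endoderm lists (9, 7 and 7 genes), 6 genes were called, beside 22.0% of all genes. These calls are thus given as a description, and Zp3 of the oocyte list is described below. The trophectoderm genes Id2, Gata3 and Tead4 rose by 0.76, 0.57 and 0.65 on the log2 scale (limma adjusted p = 0.0191, 0.0279 and 0.0432), each with 2 of 2 later pools above. So did 2 primitive endoderm genes, Gata6 by 0.47 (limma adjusted p = 0.0265) and Dab2 from 24.0 and 28.3 RPKM to 54.6 and 51.0 RPKM (limma adjusted p = 0.0153), with 2 of 2 later pools above for both. Positive values were held by 61.1% of all genes in this step. Over the alternatives the log2 change ran from 0.11 to 0.76 for Gata6, 0.34 to 0.81 for Gata3 and 0.61 to 1.14 for Dab2. Pou5f1 of the epiblast list fell by 0.42 (limma adjusted p = 0.0290), with 2 of 2 later pools below, though its value turns to 0.12 after quantile normalization. In the same list Nanog was also lower (-0.15), whereas Sox2 (0.18), Fgf4 (0.47), Esrrb (0.60) and Klf2 (0.02) were higher, none of them called. Prdm14 was at 0.031 and 0.582 RPKM in p38-MAPKi at 7 h and at 1.559 and 1.563 RPKM in p38-MAPKi at 10 h. It passed the filter through the pools at 10 h alone, so no fold, test or call is given for it. All 6 calls end without p38-MAPKi pool 1 or pool 2 at 10 h (limma adjusted p from 0.0540 to 0.300), and they held in 9 to 11 of 14 alternatives. In whole pools a shift in cell make-up and a shift in mRNA per cell cannot be told apart, for these genes and for the Uchl genes alike.

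Of 10 oocyte markers, Ooep alone was at 1 RPKM or more in all libraries, at 12.6 to 31.9 RPKM, and it carries the sum of the list. At 10 h Ooep was at 18.3 and 17.9 RPKM in control and 25.9 and 21.8 RPKM in p38-MAPKi, while the other 9 oocyte markers summed to 4.29 and 3.06 RPKM in control and 3.41 and 3.06 RPKM in p38-MAPKi. Over all libraries those 9 summed to between 3.06 and 8.68 RPKM. Among them, Zp3 was at 3.43 and 2.08 RPKM in p38-MAPKi at 7 h and at 0.961 and 0.464 RPKM in p38-MAPKi at 10 h. In control at 10 h it was at 1.27 and 1.07 RPKM. For p38-MAPKi from 7 h to 10 h Zp3 passed the filter through the pools at 7 h alone, so no fold, test or call is given. Of 10 neuron markers 0 were at 1 RPKM or more in all libraries, with sums of 2.12 to 4.21 RPKM, Elavl3 as the most abundant gene over the libraries, and no read of Snap25, Gap43, Elavl4 or Rbfox3. The 8 cumulus and granulosa markers summed to 0.214 to 1.51 RPKM, and Has2, Tnfaip6 and Fshr had no read. The 6 blood and fibroblast markers summed to 8.94 to 13.7 RPKM, most of it from the endothelial and inner cell mass gene Pecam1, and Ptprc, Hbb-bs and Col1a2 had no read.

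With 2 pools per group, the spread within a group is known poorly, and a difference that did not pass may still exist. Whole blastocysts were pooled, so the cell type behind any level is not known. At 7 h the number of genes called moves with the scaling, and the reason was not tested. The difference of Uchl1 at 10 h is the value it was chosen on, and a test of it needs pools that played no part in the choice. Protein and enzyme activity were not measured.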

How the data were processed

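The authors trimmed single-end 50-base reads with Trim Galore 0.4.1, mapped them to GRCm38 with HISAT2 2.0.5 and counted them over genes in SeqMonk 1.45.4. The deposited values are log2 RPKM, with 0 reads written by the authors as 0.9 read. The strand option and the treatment of reads that map to several places are not stated. The members and the lists were chosen with earlier results of these data known.

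Comparisons used limma 3.58.1 in R 4.3.3 (lmFit and eBayes with a trend) on the deposited values of all genes at 1 RPKM or more in at least 2 libraries of the fit. Benjamini-Hochberg adjustment ran over all genes tested, and a gene was called at an adjusted p under 0.05. Each time and each step used its own 4 libraries, interactions 8 and the common effect all 12. With 1 of 4 libraries left out, the spread within groups came from the other group alone. Uchl1 was not tested where a group at 10 h enters. For p38-MAPKi against control at 4 h, and for control from 4 h to 7 h, limma estimated the same spread for all genes of a level, so that a gene's own spread did not enter.

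Whole reads were recovered from the deposited values and total reads, to within 0.02 of a whole number, and served to describe depth only, with lengths from GENCODE M21 or, as for Uchl3, searched for. Tables were handled in pandas 2.3.3 and numpy 2.4.6 under Python 3.11.15, figures drawn with matplotlib 3.10.9, intervals taken from scipy 1.17.1 and sequences aligned with Biopython 1.88. Named in each list were the called genes or, with none called, the most abundant gene and the one with the smallest p, of which a part is printed. Genes like Uchl1 were the 6 highest and 4 lowest Pearson r. All 209 list genes were found. Sequences came from GENCODE M21 transcripts and RefSeq GRCm38.p6 promoters, of which all members had one. Alternatives were other scalings (libraries centred on their median, quantile normalization, a loess fit of each library on gene length removed), no filter or one at 10 RPKM, pseudocounts of 0.1 and 5, no trend, a replicate block, all 12 libraries in 1 fit and each library left out. Chosen after seeing the data were a block with crossed pool numbers, leaving libraries out of steps, interactions and the common effect, pseudocounts and no trend for these, and 12 libraries for steps.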

Additional observations from a re-analysis of the deposited data

Results flagged for a closer look

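For Uchl3 and its gene copy Uchl4, both p38-MAPKi pools lay above both control pools at 4 h and at 7 h and below both at 10 h. Taken singly, these positions were held by 26.8%, 23.0% and 29.6% of all genes, and the share that held all of them is not given. At 4 h the nearest Uchl3 pools were at 39.05 RPKM in p38-MAPKi and 38.96 RPKM in control. The log2 effect of p38-MAPKi on Uchl3 was lower at 10 h than at 4 h by a difference of -0.29 and than at 7 h by one of -0.48, and neither interaction was called (limma adjusted p = 0.584 and 0.144). For Uchl4 the same differences were -0.93 and -1.45 (limma adjusted p = 0.450 and 0.0666). That the pools lie on opposite sides is a description, the interaction is the test of the difference, and reads shared by these genes were not separated.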

How the results depend on the processing

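Leaving libraries out aside, 577 values were labelled unchanged under other settings, while 18 turned direction, 12 gained a call, 2 lost one and 8 untested Uchl1 values moved. Unchanged means the same sign and the same side of an adjusted p of 0.05. For untested Uchl1 values it means a shift smaller than the pooled SD within groups. Most values were not called to begin with, so staying uncalled counted as unchanged. The causes of changes were not tested. Genes called at 4 h were 0 with libraries centred, after quantile normalization, with the length trend removed, without a filter and with 12 libraries in 1 fit (1070, 1147, 1110, 7469 and 1211 at an unadjusted p under 0.05 with limma), 36 at 10 RPKM, 11 without trend and 200 with a block of crossed pool numbers. At 7 h they were 0 without trend, with centring and without the length trend (2629, 3053 and 2423 at an unadjusted p under 0.05 with limma), 12 after quantile normalization (7 higher and 5 lower, against 102 and 131), 1236 without a filter, 947 at 10 RPKM, 647 with a pseudocount of 5, 2023 with the block, 2586 with 12 libraries and 676 with crossed numbers. At 10 h they were 0 without a filter and with 12 libraries (3293 and 611 at an unadjusted p under 0.05 with limma), 135 with the length trend removed, 166 at 10 RPKM, 9 without trend and 410 with the block.

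Without single libraries, genes called ran from 6 to 412 at 4 h, from 0 (without control pool 2, 1150 at an unadjusted p under 0.05 with limma) to 2996 at 7 h and from 42 to 107 at 10 h.

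In the steps, limma called 53 genes in control from 4 h to 7 h (0 to 54 over other settings, 8 to 56 without single libraries), 1 under p38-MAPKi (0 to 380, 0 to 733), 6 in control from 7 h to 10 h (0 to 28, 12 to 209), 2424 under p38-MAPKi (0 to 3638, 75 to 6434), 51 in control from 4 h to 10 h (0 to 536, 53 to 1183) and 0 under p38-MAPKi (0 to 1818, 55 to 4749). Those 51 were 47 higher and 4 lower, but 25 and 12 with centring, 30 and 13 after quantile normalization and 28 and 15 with the length trend removed. The interactions called 1 between 4 h and 7 h (0 to 2, 0 to 294), 1 between 7 h and 10 h (0 to 610, 0 to 2918) and 0 between 4 h and 10 h (0 to 5, 0 to 557), and the common effect 310 (9 to 685, 64 to 587). At an unadjusted p under 0.05 limma gave 516, 1031, 412, 4471, 1646, 2431, 772, 2995, 1113 and 2903 genes in this order.

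The direction of p38-MAPKi against control turned for Uchl3 at 4 h after quantile normalization (-0.0164), for Uchl5 at 4 h with the length trend removed (-0.0128), for Bap1 at 7 h with centring (0.0365) or the length trend removed (0.0431), and for Uchl5 at 10 h after quantile normalization (0.0064). Uchl5 at 7 h was called with 12 libraries in 1 fit (0.43, limma adjusted p = 0.0343), and Uchl4 at 7 h with the block (0.0279) and 12 libraries (0.0141). Uchl1 at 10 h had -1.34 with a pseudocount of 5.

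Under p38-MAPKi from 7 h to 10 h, Uchl3 was called with centring (0.0157), the length trend removed (0.0405), 10 RPKM (0.0275), a pseudocount of 5 (0.0440), the block (0.0274) and 12 libraries (0.0242), and without trend Uchl5 (0.0796) and Uchl4 (0.0627) were not, by limma adjusted p. From 4 h to 10 h Uchl4 was called with the block (0.00524) and 12 libraries (0.0486), as was its interaction between 7 h and 10 h with the block (0.0443) and without control pool 1 (0.0372) or p38-MAPKi pool 2 (0.0164) at 7 h. Without p38-MAPKi pool 1 at 4 h, Uchl3 (0.0155), Uchl5 (0.0245) and Uchl4 (0.00893) were called from 4 h to 10 h, and without control pool 2 at 4 h Bap1 was called in control over that span (0.0458). Untested, Uchl1 from 4 h to 10 h in control had 0.21 with centring, 0.25 after quantile normalization, 0.21 with the length trend removed and 0.30 with a pseudocount of 5, which gave -1.65 for its step from 7 h to 10 h under p38-MAPKi.

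In the steps the direction turned for Bap1 from 4 h to 7 h under p38-MAPKi with centring (0.0384) and the length trend removed (0.0433), for Uchl3 from 7 h to 10 h in control with centring (-0.0012) and the length trend removed (-0.0014), for Bap1 from 7 h to 10 h under p38-MAPKi with centring (-0.18) and the length trend removed (-0.19), and for Uchl4 from 4 h to 10 h in control with centring (-0.0487), quantile normalization (-0.0672) and the length trend removed (-0.0104). The interaction between 7 h and 10 h of Bap1 turned with centring (-0.19), quantile normalization (-0.0339) and the length trend removed (-0.20), and that of Uchl5 between 4 h and 10 h after quantile normalization (0.0048).

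Without single libraries, the ranges that cross 0 were -0.30 to 0.20 for Uchl1 at 4 h, -0.0012 to 0.27 for Bap1 at 4 h and -0.15 to 0.05 for Uchl5 at 10 h. In control from 4 h to 7 h they were -0.19 to 0.0399 for Uchl3 and -0.10 to 0.0731 for Uchl5. From 7 h to 10 h they were -0.28 to 0.28 for Uchl1 (-0.0405 to 0.0197 over other settings), -0.0908 to 0.14 for Uchl3, -0.16 to 0.0411 for Uchl5 and -0.0763 to 0.16 for Bap1. From 4 h to 10 h they were -0.10 to 0.0017 for Uchl3, -0.17 to 0.0275 for Uchl5 and -0.0024 to 0.18 for Uchl4. Under p38-MAPKi they were -0.17 to 0.0103 for Bap1 from 4 h to 7 h and -0.12 to 0.0552 from 4 h to 10 h, and for the interaction of Bap1 between 7 h and 10 h -0.12 to 0.12.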

Other observations

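The copies of the Usp17l cluster were read in the same libraries. Usp17la, Usp17lc, Usp17ld and Usp17le were at 3.46, 5.12, 1.61 and 8.72 RPKM in control pool 1 at 10 h, at 0.825, 1.52, 0.670 and 0.843 RPKM in control pool 2, and at 1.66, 3.04, 1.53 and 4.94 RPKM in p38-MAPKi pool 2 at 7 h. In p38-MAPKi pool 1 at 7 h they were at 0.030, 0.033, 0.040 and 0.040 RPKM, so the pools of that group differ. Reads that fit several copies were not separated.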
